A study of Homo sapiens with 6 samples.

Results

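The genes followed belong to the YAP/TEAD programme: CCN1, CCN2, ANKRD1, AMOTL2, AJUBA, AXL, LATS2, NT5E, MYOF and TEAD1, 10 of the 63563 genes in the deposited table. They were chosen by name, with earlier results of these data known, as CCN1 and widely used YAP/TEAD target or partner genes. CCN1 is deposited under its older symbol CYR61 and CCN2 as CTGF. The values come from RKO, a human colorectal cancer cell line. Cells stably transfected with the empty expression vector pcDNA3.1 formed the control group, EV (3 libraries), and cells carrying the same vector with the cDNA of connexin 43 (Cx43), a gap junction protein encoded by GJA1, formed the group OVER43 (3 libraries). The labels do not say whether each line is 1 clone or a pool of transfected cells, nor that replicate libraries are from different cultures. The p-values below therefore measure only the spread between these libraries. The single comparison, OVER43 against EV, asks which transcripts differ between the Cx43-overexpressing and the control cells. In this design an effect of Cx43 cannot be told apart from any other difference between the lines.

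YAP and its relative TAZ are transcriptional coactivators that cannot bind DNA by themselves and act mainly through the TEAD family of DNA-binding proteins. The Hippo pathway, a chain of kinases that ends in LATS1 and LATS2, phosphorylates YAP and TAZ and keeps them out of the nucleus. In the intestine YAP is known for its part in regeneration after injury and in tumour growth. CCN1 and CCN2, 2 secreted matrix proteins, and ANKRD1 are the usual readouts of YAP/TEAD activity, while AMOTL2, AJUBA and LATS2 are targets or components that act back on the pathway.

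The promoter sequences show which members carry the TEAD core in the stretch just before their start. RefSeq (GRCh38.p14) gave the 250 bases before the start for 8 of the 10 members, in 11 windows because AMOTL2, AJUBA and AXL have 2 starts each. No window was available for CCN1 and TEAD1, which were therefore not searched. The letters GGAATG were searched on both strands, so that CATTCC on the printed strand also counts. The second motif searched was the AP-1 motif TGANTCA. The 4 windows below are printed 5′ to 3′ on the gene's strand, with GGAATG in capitals: 2 genes that hold it and stood on opposite sides in the comparison, CCN2 (chr6:131951373-131951622, minus strand) and ANKRD1 (chr10:90921088-90921337, minus strand), and 2 genes without it that moved in opposite directions, NT5E (chr6:85449833-85450082, plus strand) and MYOF (chr10:93482335-93482584, minus strand).
CCN2: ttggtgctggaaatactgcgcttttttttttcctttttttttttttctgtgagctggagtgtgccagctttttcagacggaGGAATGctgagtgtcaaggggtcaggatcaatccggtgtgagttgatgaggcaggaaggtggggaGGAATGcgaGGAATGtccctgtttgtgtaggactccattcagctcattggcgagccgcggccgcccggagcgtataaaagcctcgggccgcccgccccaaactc
ANKRD1: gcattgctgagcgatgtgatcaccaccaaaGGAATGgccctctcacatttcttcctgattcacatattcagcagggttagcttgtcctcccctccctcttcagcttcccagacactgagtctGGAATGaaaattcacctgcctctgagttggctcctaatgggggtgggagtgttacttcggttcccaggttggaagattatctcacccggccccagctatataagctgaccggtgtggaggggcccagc
NT5E: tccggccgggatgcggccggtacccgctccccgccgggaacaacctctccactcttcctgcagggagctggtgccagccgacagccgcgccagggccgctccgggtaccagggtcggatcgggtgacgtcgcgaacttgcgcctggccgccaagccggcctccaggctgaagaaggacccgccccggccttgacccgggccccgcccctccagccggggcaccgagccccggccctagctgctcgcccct
MYOF: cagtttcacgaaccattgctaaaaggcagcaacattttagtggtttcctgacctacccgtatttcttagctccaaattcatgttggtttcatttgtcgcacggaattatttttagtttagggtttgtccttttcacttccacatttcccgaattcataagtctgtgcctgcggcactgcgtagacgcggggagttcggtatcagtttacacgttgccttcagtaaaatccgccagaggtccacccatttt
In CCN2 the 3 matches begin 169, 104 and 95 bases before the start, and in ANKRD1 the 2 matches begin 220 and 128 bases before it. AMOTL2, AJUBA and AXL hold 1 match each, at their second start only, beginning 69, 59 and 212 bases before it. The letters were therefore found in 5 of the 11 windows, against 11.9% of the 35116 promoter windows of the same length in the table. TGANTCA stood in 1 member window, that of ANKRD1, against 6.57% of all windows. A match is a description of the letters and does not show binding.

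The label of the lines was checked first. GJA1 read 23.2, 26.0 and 24.9 in the OVER43 libraries and 0.300, 0.351 and 0.394 in the EV libraries, in FPKM (fragments per kilobase of transcript, scaled to the depth of the library). This was 71.0-fold higher in OVER43. Depth, read from the steps of low FPKM values, was 42.1 to 51.6 M fragments per library. Of the colon epithelial markers, EPCAM, KRT8, KRT18 and CDX2 passed the filter on low values, KRT20 stood at 0 in every library, and CDH1, KRT19, VIL1 and LGALS4 stayed below it. The 8 fibroblast markers summed to 0.545 to 0.751 FPKM in OVER43 and 0.863 to 1.35 in EV, with COL3A1 at 0 throughout. The 5 endothelial markers summed to 0.260 to 0.437 and 0.120 to 0.186 FPKM. The leukocyte genes PTPRC and CD3E were at 0 in all libraries. The 5 leukocyte markers other than CD68 summed to 0.0285 to 0.230 and 0.0728 to 0.141 FPKM, and CD68 at 376 ± 9.38 (OVER43) and 413 ± 8.11 FPKM (EV) in a deposited locus that it shares with other genes.

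The members did not move as 1 group. CCN1 and NT5E fell in OVER43, by 3.26-fold and 2.68-fold in mean FPKM, while MYOF, AJUBA and AXL rose, by 1.91-fold, 1.46-fold and 1.22-fold. AMOTL2, LATS2 and TEAD1 did not pass the test, and CCN2 and ANKRD1, which lay below the filter of 1 FPKM in at least 3 of the 6 libraries, stood on opposite sides, CCN2 lower and ANKRD1 higher in OVER43. Genes above the filter were tested with limma on log2(FPKM + 1), with Benjamini-Hochberg adjustment over all 12205 genes tested and adjusted p under 0.05 as the call. Log2 fold changes below are on that scale, OVER43 minus EV, which understates the change of low genes. Of the 8 members tested 5 were called, beside 45.9% of all genes. Of these, 3 were higher, where 28.4% of all genes tested were higher, and 2 were lower, where 17.5% of all genes were lower. The groups did not overlap for 5 of the 8, where 56.3% of all genes tested did not. These counts are near the background shares and are no result about the members as a list. The median log2 fold change of the 8 was -0.05, beside 0.05 for all genes tested. The scaling moves the background: the share of calls that were higher was 61.8% as deposited. It was 51.9% with TMM factors, 51.2% with quantile scaling and 34.4% once the FPKM sums were made equal, when the median of all genes became -0.08. In the deposited values the FPKM sums were higher in OVER43.

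**Figure D1:**
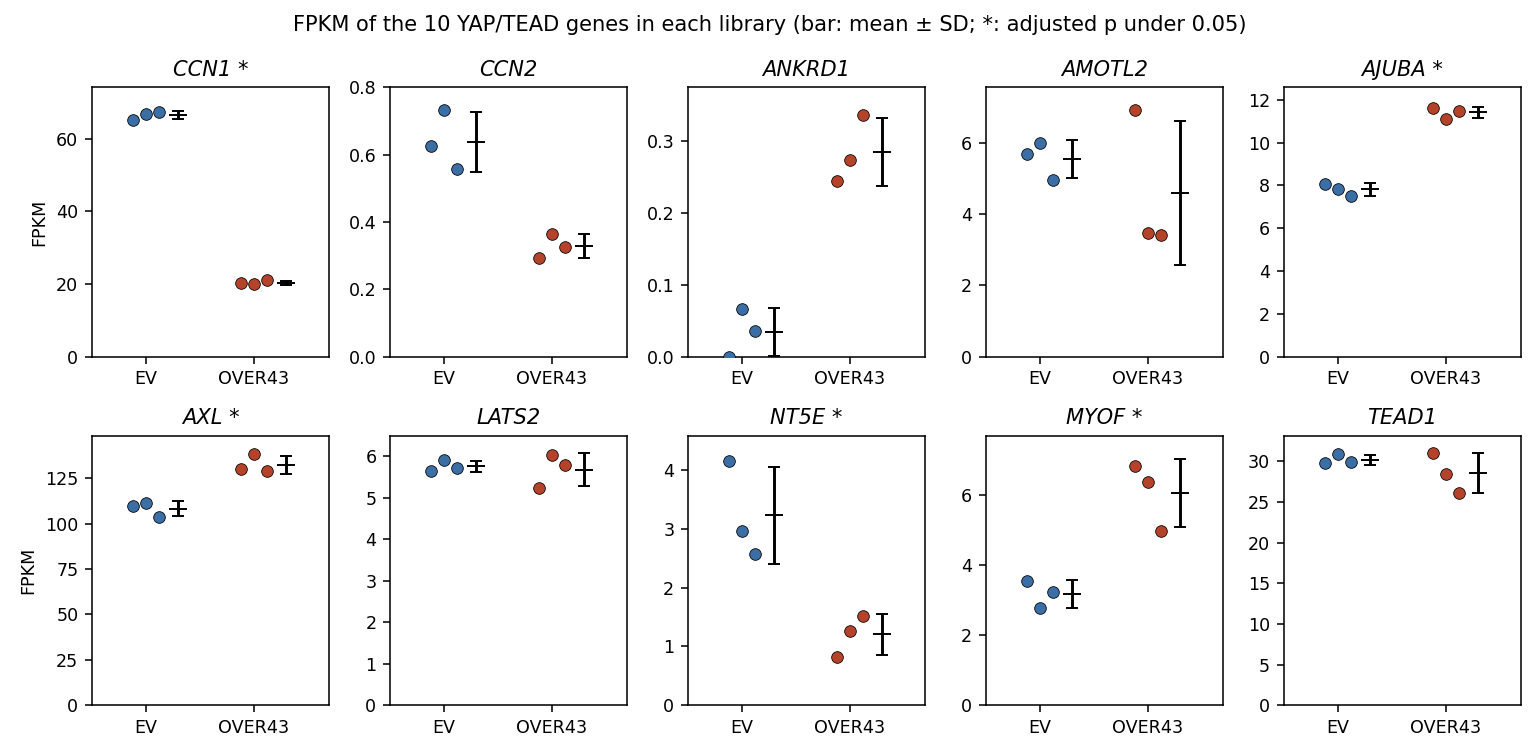
FPKM (vertical axis, from 0, scaled separately for each gene) of the 10 members in every library (points), with the mean ± SD of 3 libraries beside each group; an asterisk marks adjusted p under 0.05. CCN1 and NT5E lie lower in OVER43 with no overlap, MYOF, AJUBA and AXL lie higher with no overlap, and 1 OVER43 library of AMOTL2 lies apart from the other 2.

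CCN1 is a secreted, heparin-binding matrix protein that signals through integrins and is among the fastest genes to answer active YAP. Its level was 20.2, 20.0 and 21.0 FPKM in OVER43 and 65.2, 66.7 and 67.4 FPKM in EV. The 3 OVER43 libraries lay close together and far below all 3 EV libraries (20.4 ± 0.541 against 66.4 ± 1.12 FPKM, mean ± SD, n = 3 each). The log2 fold change was -1.66 (SE 0.0415, limma adjusted p = 1.42e-07), and only 43 of the genes tested, 0.352%, CCN1 included, had a fold change this low or lower. The gene lies at chr1:86046443-86049645 on hg19, the build of the deposited positions, in a locus that holds no other gene. Its fall lay on the coding transcript ENST00000451137, at 19.8 ± 0.598 FPKM in OVER43 and 65.1 ± 1.26 in EV, for which the FPKM correspond to 1935 to 1967 and 5711 to 6840 fragments. The isoform table also has an entry that spans the whole gene with its introns, to which unspliced RNA contributes. For CCN1 that entry measured 0.602, 0.350 and 0.478 FPKM in OVER43 and 1.44, 1.5 and 1.12 in EV, lower in each OVER43 library than in any EV library. Among all whole-gene entries with a mean of at least 0.01 FPKM, 35.8% did not overlap between the groups. Its call over all 31220 entries tested, of which 14.6% were called, missed the threshold (adjusted p = 0.0545, limma).

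CCN2, the close relative of CCN1 and known for its role in fibrosis, was near the lower end of what these libraries measure. It read 0.294, 0.365 and 0.324 FPKM in OVER43 and 0.625, 0.733 and 0.557 in EV, so that every OVER43 library was below every EV library. The mean was 1.95-fold lower in OVER43. Its transcript held an estimated 93 fragments over the 3 OVER43 libraries and 188 over the 3 EV libraries, a ratio with a 95% counting interval of 1.59 to 2.66, which leaves out the spread between libraries. With no filter on low values limma gave a log2 fold change of -0.30 with adjusted p = 0.0536, and the authors' deposited table calls CCN2 significant at q = 0.0122. The lower reading shared its direction with CCN1, at a far lower level. The other members of the CCN family were measured less: of CCN3, CCN4, CCN5 and CCN6 only CCN3 passed the filter, at 7.35 ± 0.702 FPKM in OVER43 and 7.28 ± 0.359 in EV (limma adjusted p = 0.939), and 2 of the 4 were at 0 in every library.

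ANKRD1, a nuclear ankyrin repeat protein first known from heart muscle, went the other way. It read 0.245, 0.274 and 0.337 FPKM in OVER43 and 0, 0.0669 and 0.0364 in EV, with no overlap. Its transcript held an estimated 70 fragments in the OVER43 libraries together and 8 in the EV libraries, a ratio of 8.62 with a 95% counting interval of 4.14 to 20.7. Without the filter limma called it (log2 fold change 0.31, adjusted p = 0.0204), while the authors' deposited table gives q = 0.339. With so few fragments in EV, the size of the difference is loosely set. The 3 usual readouts of YAP/TEAD activity thus did not share a direction.

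AMOTL2, a junction protein of the angiomotin family that binds YAP and holds it in the cytoplasm, turned on 1 library. The gene read 6.91, 3.46 and 3.40 FPKM in OVER43 and 5.69, 5.98 and 4.94 in EV. OVER43 library 0 was the highest of all 6, and the other 2 OVER43 libraries were the lowest. The log2 fold change was -0.28 (SE 0.215, limma adjusted p = 0.320; exact two-sided permutation p = 0.4, where 3 against 3 cannot go below 0.1). In that library 2 short transcript entries, ENST00000505596 (527 bases) and ENST00000511759 (577 bases), read 2.02 and 1.53 FPKM. All AMOTL2 transcripts under 1000 bases together held 3.65 FPKM there from about 61.0 fragments, whereas its transcripts of 1000 bases or more held 3.22 FPKM from about 661 fragments. In the other 5 libraries the short transcripts summed to 0 to 0.570 FPKM. Summed over entries of at least 1000 bases with the whole-gene entry included, an alternative chosen after the data were seen, AMOTL2 read 3.26, 3.46 and 3.39 FPKM in OVER43 and 5.12, 5.76 and 4.94 in EV. On that measure it was 1.56-fold lower (log2 fold change -0.52, SE 0.0720, limma adjusted p = 0.000342), where 20.8% of 11361 genes were lower. Leaving out OVER43 library 0 from the deposited gene values gave -0.56 (adjusted p = 0.00621, limma). The deposited AMOTL2 locus, chr3:134070693-134094321 (hg19), also holds the pseudogene RPL39P5.

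**Figure D2:**
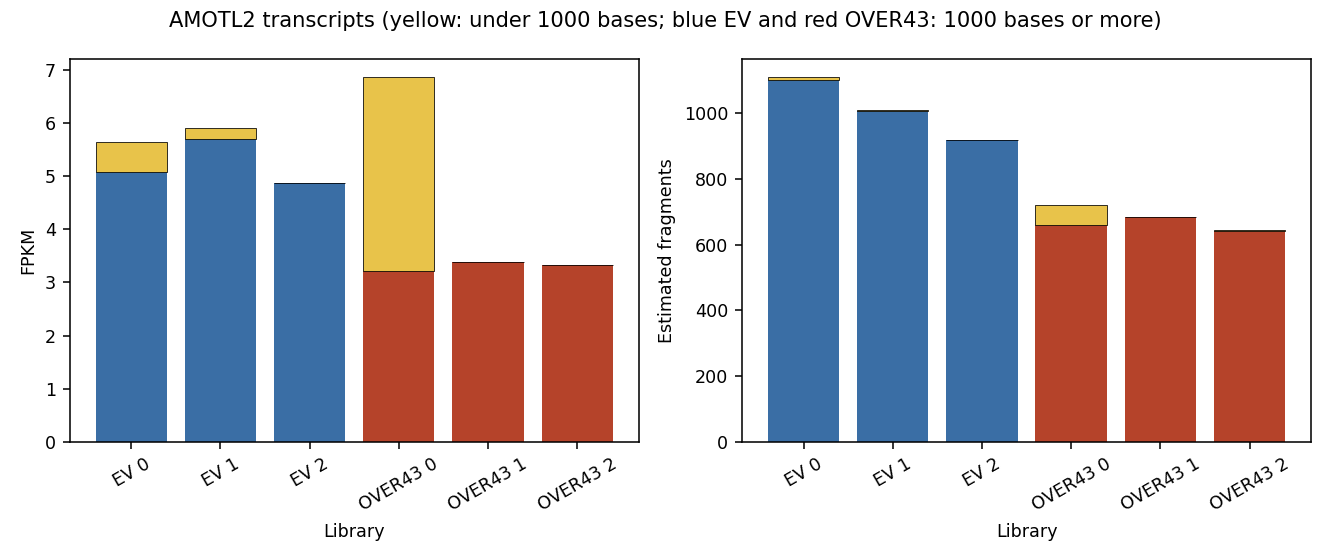
AMOTL2 in the 6 libraries: FPKM (left) and estimated fragments (right) in transcripts under 1000 bases (yellow), stacked on those of at least 1000 bases (blue EV, red OVER43). OVER43 library 0 has 3.65 FPKM in short transcripts from about 61.0 fragments, and its long transcripts, at 3.22 FPKM, lie with the other OVER43 libraries.

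AJUBA, a LIM-domain scaffold protein that binds and restrains LATS kinases, was higher in OVER43. It read 11.6, 11.1 and 11.5 FPKM in OVER43 and 8.09, 7.86 and 7.51 in EV, and the 2 groups were narrow and apart. The log2 fold change was 0.49 (SE 0.0623, limma adjusted p = 0.000441). The increase was found on its main coding transcript, ENST00000262713, at 10.3 ± 0.0801 and 7.10 ± 0.265 FPKM (adjusted p = 0.00566, limma). The genes around it were also higher: of 76 genes tested within 5 Mb, 49 were higher and 5 lower (28.4% and 17.5% of all genes), with a median log2 fold change of 0.40, and within 2 Mb the median was 0.50 over 62 genes, close to AJUBA itself. Its deposited locus, chr14:23398817-23451851, holds 5 genes. What part the neighbourhood has in the AJUBA difference was not tested.

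LATS2, the kinase at the end of the Hippo chain and itself a YAP target, read 5.23, 6.02 and 5.78 FPKM in OVER43 and 5.64, 5.90 and 5.72 in EV. The groups overlapped (log2 fold change -0.02, SE 0.0776, limma adjusted p = 0.868). This sign turned under quantile scaling and without OVER43 library 0. TEAD1, the DNA-binding partner, read 31.0, 28.5 and 26.1 FPKM in OVER43 and 29.8, 30.9 and 29.9 in EV, again with overlap (-0.08, SE 0.0639, adjusted p = 0.331, limma). With equal FPKM sums TEAD1 passed the threshold at -0.22 (adjusted p = 0.0314). None of the 4 TEAD1 transcripts tested was called.

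The 3 remaining members act at the cell surface. AXL, a receptor tyrosine kinase for GAS6 that is linked to invasion, had the highest level of the 10 members per kilobase. It read 130.2, 138.1 and 128.9 FPKM in OVER43 and 109.6, 111.4 and 103.5 in EV, with all OVER43 libraries above all EV libraries. The log2 fold change was 0.29 (SE 0.0417, limma adjusted p = 0.000855), which was 0.15 with equal FPKM sums. The call ended under quantile scaling (0.10, adjusted p = 0.0823). Both of its main coding transcripts rose: ENST00000301178 read 76.9 ± 0.743 FPKM in OVER43 and 64.7 ± 3.01 in EV (adjusted p = 0.0134), and ENST00000359092, which codes for a slightly shorter protein, at 54.1 ± 4.4 and 41.6 ± 2.04 (adjusted p = 0.0213). The share of AXL held by ENST00000359092 was 41.2% ± 1.78 in OVER43 and 38.9% ± 1.17 in EV, a difference that did not reach the smallest p this design allows (exact permutation p = 0.2, where 0.1 is the smallest). The whole-gene entry of AXL was 1.05 ± 0.0661 and 1.02 ± 0.0184 FPKM (adjusted p = 0.958, limma), so the difference was seen in the spliced transcripts and not detected in that entry.

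NT5E encodes CD73, the surface enzyme that makes adenosine from AMP. Its level was 0.826, 1.27 and 1.52 FPKM in OVER43 and 4.16, 2.97 and 2.58 in EV, wide within each group but without overlap. The log2 fold change was -0.94 (SE 0.174, limma adjusted p = 0.00303). Over entries of at least 1000 bases the levels were 0.850 ± 0.166 and 1.69 ± 0.295 FPKM and the fold change shrank to -0.54 (adjusted p = 0.00433). The 974-base entry ENST00000369646 and the full-length ENST00000257770 were each lower without reaching the threshold (adjusted p = 0.0662 and 0.108, limma). The whole-gene entry was also lower, with no overlap: 0.0264 ± 0.00242 FPKM in OVER43 and 0.122 ± 0.00932 in EV, a ratio of 0.216. Among all whole-gene entries with a mean of at least 0.01 FPKM, 35.8% did not overlap. NT5E lies alone in its locus, chr6:86159808-86205500 on hg19. Of 26 genes tested within 5 Mb of it, 7 were higher and 3 lower, beside 28.4% and 17.5% of all genes. Their median was 0.05, beside 0.05 for all genes.

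MYOF, a ferlin that helps to repair and fuse membranes, read 6.82, 6.37 and 4.95 FPKM in OVER43 and 3.53, 2.76 and 3.22 in EV. All 3 OVER43 libraries lay above the EV libraries, and the spread was larger in OVER43. The log2 fold change was 0.75 (SE 0.125, limma adjusted p = 0.00175). Its coding transcript ENST00000358334 rose from 1.81 ± 0.300 FPKM in EV to 4.01 ± 0.584 in OVER43 (adjusted p = 0.0176). Its whole-gene entry was 1.38 times as high in OVER43, with no overlap, as for 35.8% of all whole-gene entries with a mean of at least 0.01 FPKM. The other 5 ferlins listed (DYSF, OTOF, FER1L4, FER1L5 and FER1L6) lay below the filter and summed to at most 1.27 FPKM in every library.

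**Figure D3:**
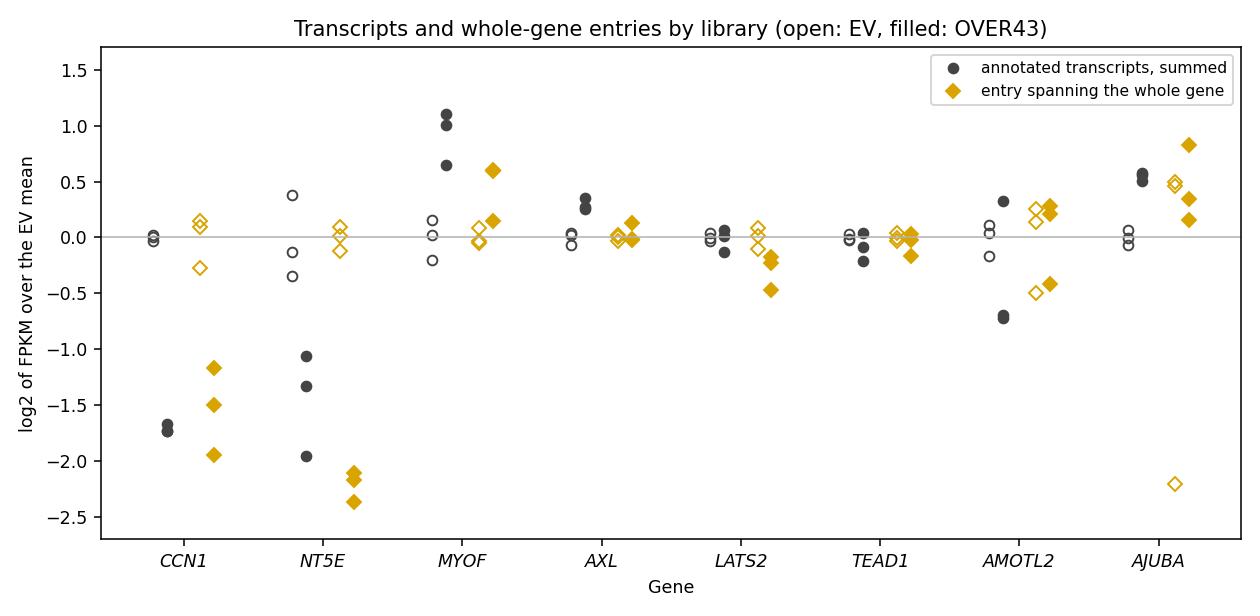
For the 8 tested members, each library's FPKM over the EV mean (log2, vertical axis; open points EV, filled points OVER43), for the summed transcripts (circles) and for the whole-gene entry that spans the introns (diamonds). CCN1 and NT5E are lower and MYOF higher in OVER43 on both measures, while the AXL whole-gene entries lie near 0. The LATS2 whole-gene entry is also lower with no overlap, though LATS2 itself was not called.

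The genes around CCN1 were not at the background. Of the 7 genes tested within 1 Mb on the side of lower coordinates, 6 were lower in OVER43, against 17.5% of all genes; neither of the 2 tested within 1 Mb on the other side was called. These neighbours were singled out after their values were seen. BCL10, which links antigen receptors to NF-kB, was 24.1 ± 0.211 FPKM in OVER43 and 61.5 ± 0.816 in EV, a log2 fold change of -1.32 (adjusted p = 3.22e-07, limma) and so close in size to that of CCN1. Farther from CCN1, C1orf52 was 34.6 ± 2.49 and 75.8 ± 3.45 FPKM (-1.11, adjusted p = 8.34e-06, limma). DDAH1, which degrades a natural inhibitor of nitric oxide synthase and shares a deposited locus with BCL10, stood at 30.6 ± 2.10 and 46.7 ± 1.26 FPKM (-0.59). The shared locus does not tell which of BCL10 and DDAH1 lies nearer to CCN1. Farther away, SYDE2 (-0.58) and the lysosomal channel genes MCOLN3 (-0.74) and MCOLN2 (-0.47, a call that ended with no filter) were lower. SSX2IP, 0.915 Mb away, was higher (0.15, a call that ended under 10 of 14 alternatives). On the other side of CCN1, ZNHIT6 was at 0.09 and ODF2L at 0.02, neither called (adjusted p = 0.373 and 0.914). The whole-gene entry of BCL10 was also lower, at 0.499 against 2.73 FPKM, and that of C1orf52 at 2.35 against 6.49 FPKM. The reading of CCN1 thus stands in a run of lower neighbours that reaches to one side of it, and what part that run has in the CCN1 difference was not tested. Over 5 Mb on both sides the median of 31 genes was -0.09, with 3 higher and 9 lower, beside 28.4% and 17.5% of all genes.

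**Figure D4:**
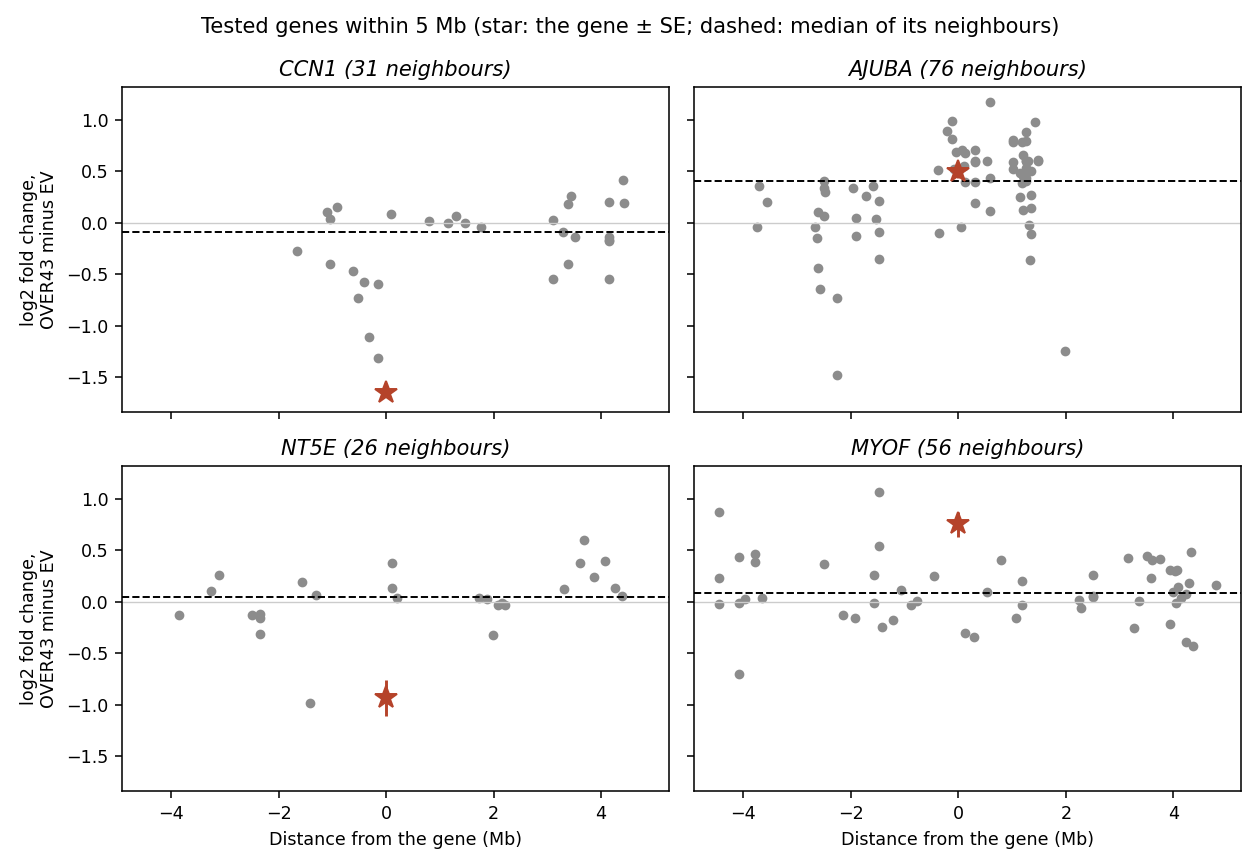
Log2 fold change (OVER43 minus EV) of tested genes against their distance in Mb from CCN1, AJUBA, NT5E and MYOF (star at 0, ± SE), with the median of the neighbours dashed. Within 1 Mb on the side of lower coordinates of CCN1, 6 of 7 genes are called lower, and the genes around AJUBA lie mostly above 0 with a median of 0.40 within 5 Mb.

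Around the other members, the median of the tested genes within 5 Mb was -0.03 for CCN2 (22 genes), 0.06 for ANKRD1 (49), 0.11 for AMOTL2 (40), 0.02 for AXL (178), 0.07 for LATS2 (23), 0.08 for MYOF (56) and 0.14 for TEAD1 (45). Within 2 Mb it was -0.04 for CCN1 (17 genes), -0.21 for CCN2 (9) and 0.23 for TEAD1 (14). Of the 45 genes within 5 Mb of TEAD1, 20 were higher and 2 lower, beside 28.4% and 17.5% of all genes, while TEAD1 itself was not called.

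The regulators above the members were then read from lists. YAP1 was higher in OVER43, at 46.7 ± 2.31 FPKM against 35.6 ± 0.987 (log2 fold change 0.38, limma adjusted p = 0.000485), and it stayed called under each of the alternatives tried, with 0.24 as the smallest value (equal FPKM sums). WWTR1, which encodes TAZ, was 25.6 ± 2.51 and 24.7 ± 1.47 FPKM (adjusted p = 0.673). Among the other TEAD genes, TEAD2 rose from 8.31 ± 0.131 to 10.1 ± 0.536 FPKM (adjusted p = 0.0141), a call that ended with equal FPKM sums (adjusted p = 0.151) and over entries of at least 1000 bases (0.0669). TEAD3 and TEAD4 did not pass the test (adjusted p = 0.185 and 0.437, limma). In all, 2 of the 6 tested genes of YAP, TAZ, TEAD and their cofactors were higher and 0 lower, beside 28.4% and 17.5% of all genes, with a median of 0.08. A count of 2 of 6 is near the background.

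Of 25 Hippo kinases and upstream regulators, 20 were tested, 2 were higher and 7 lower, beside 28.4% and 17.5% of all genes, with a median of -0.02. AMOT, the founding angiomotin, which like AMOTL2 binds YAP, passed the filter only through the EV libraries, where it is high, so its place among the lower genes follows in part from the filter. It measured 0.404 ± 0.112 FPKM in OVER43 and 1.49 ± 0.445 in EV (log2 fold change -0.82, and -1.65 with a pseudocount of 0.1; limma adjusted p = 0.00391). PTPN14, a phosphatase that binds YAP, was 5.88 ± 0.0954 and 8.08 ± 0.842 FPKM (-0.40), and WWC2 differed by -0.29, a call that ended under 6 alternatives. The kinase genes TAOK2 (0.26) and STK4 (0.22) were higher, while other kinase genes were among the 7 lower. Both calls ended with equal FPKM sums, and that of STK4 also under quantile scaling (0.11, adjusted p = 0.0892, limma). Over the alternatives 3 to 8 genes of this list were lower and 0 to 6 higher, with 3 lower when no filter was used.

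Of 28 further YAP/TEAD targets listed, 14 were tested, 7 were lower and 2 higher, beside 17.5% and 28.4% of all genes, with a median log2 fold change of -0.31 against 0.05 for all genes. The lower count ranged from 6 to 10 over the alternatives, with 10 at equal FPKM sums, where 3567 of the 12205 genes tested were lower. This list was chosen with earlier results of these data known. ASAP1, a regulator of ARF proteins and focal adhesions, fell from 37.6 ± 1.87 FPKM in EV to 22.9 ± 1.84 in OVER43 (-0.69), and GAS6, the ligand of AXL, from 9.98 ± 0.129 to 6.45 ± 0.431 (-0.56). PTPN14, given above, is also on this list. Against these, ARHGAP29, a YAP target that lowers actin stress fibres, rose from 6.88 ± 0.282 to 73.0 ± 3.24 FPKM, a log2 fold change of 3.23. FJX1 rose from 14.8 ± 2.19 to 23.7 ± 0.664 FPKM (0.66). ARHGAP29 alone moved more than any of the 8 tested members. The genes within 5 Mb of ARHGAP29 had a median of 0.12.

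Genes that work with the surface members were read next. Of 5 tested CCN1 receptors, 4 were lower and 0 higher, beside 17.5% and 28.4% of all genes (median -0.27): the integrin subunit ITGB5 was 15.9 ± 1.93 FPKM in OVER43 and 24.5 ± 1.56 in EV (-0.60), the heparan sulphate proteoglycan SDC4 was 32.5 ± 1.79 and 41.4 ± 2.01 (-0.34), and ITGAV was 12.6 ± 0.585 and 15.5 ± 0.815 (-0.27). Of the AXL family and its ligands all 4 were tested and 2 were lower (17.5% of all genes were), GAS6 and the second ligand PROS1 (14.9 ± 0.338 and 19.6 ± 0.593 FPKM, -0.37), while AXL itself was higher. With equal FPKM sums all 4 were lower, a setting where 3567 of the 12205 genes tested were lower, against 2138 as deposited. Around NT5E, 8 genes of adenosine production, uptake and sensing were tested, 2 were higher and 3 lower, beside 28.4% and 17.5% of all genes. Counts on 8 genes are no result about the list. The lower count was 1 without EV library 0 or without EV library 2. The adenosine receptor ADORA1 stood at 0.711 ± 0.233 FPKM (OVER43) and 4.23 ± 0.338 FPKM (EV), a log2 fold change of -1.62 (-2.45 with a pseudocount of 0.1), and it passed the filter only through EV, where it is high. ENTPD2, which breaks down ATP upstream of CD73, fell from 71.5 ± 1.30 to 29.4 ± 0.858 FPKM (-1.25). ADK, which removes adenosine inside the cell, and the transporter SLC29A1 rose (0.36 and 0.26, or 0.22 and 0.11 with equal FPKM sums). ADA was lower by less (-0.31), and its call ended under 5 alternatives.

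**Figure D5:**
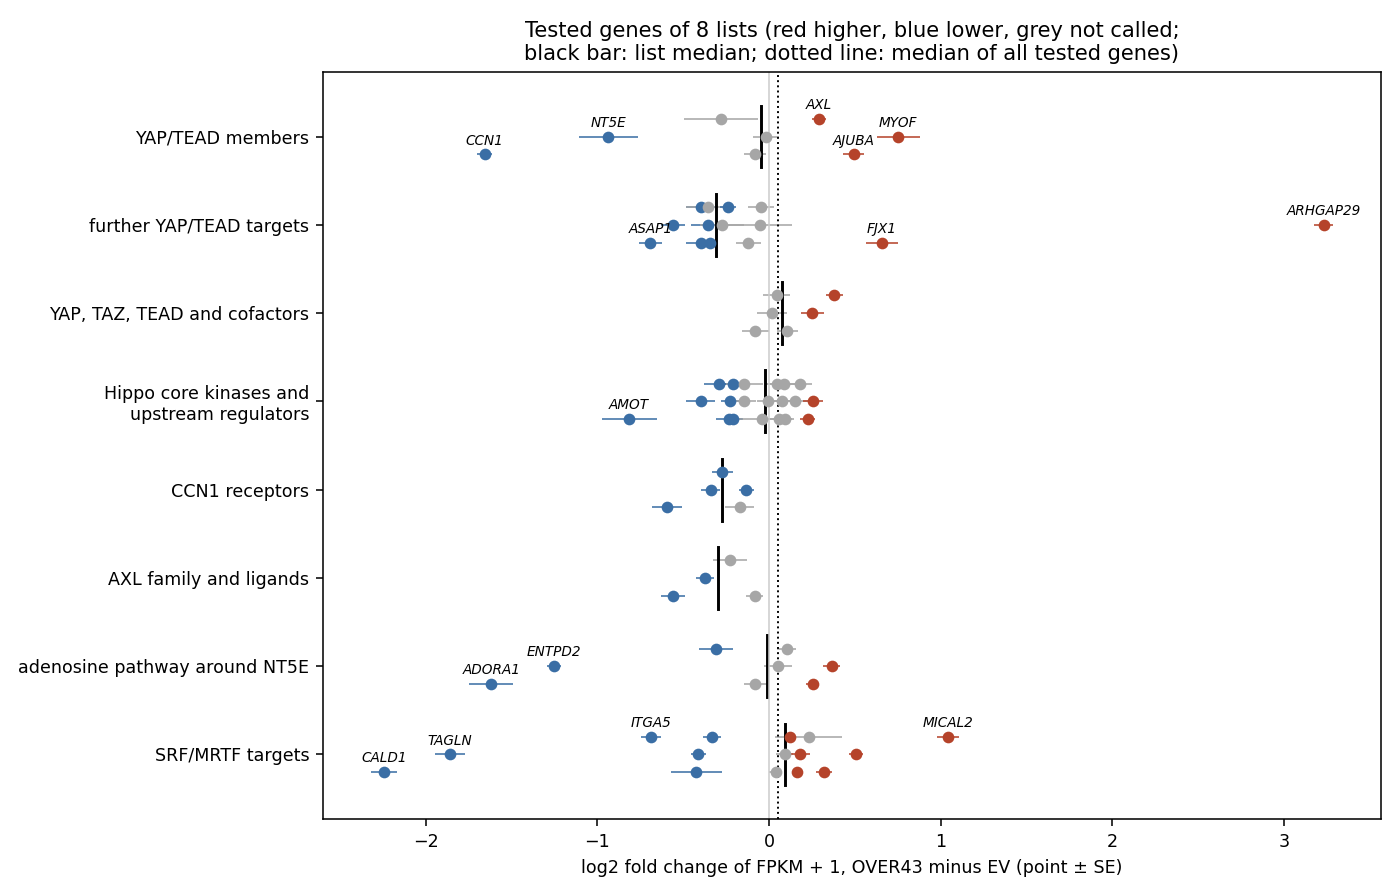
Log2 fold change (OVER43 minus EV) of every tested gene in 8 lists (points ± SE; red higher, blue lower, grey not called), with each list's median as a black bar and the median of all genes tested, 0.05, dotted. The further YAP/TEAD targets have a median of -0.31 with ARHGAP29 far above at 3.23, and the SRF/MRTF targets spread to both sides.

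Several members also answer the actin-controlled factor pair SRF and MRTF, so its targets were set beside them. Of 18 listed, 15 were tested, with 6 higher and 6 lower, beside 28.4% and 17.5% of all genes, and a median of 0.09. The higher count fell to 3 under quantile scaling or equal FPKM sums. MICAL2, an enzyme that oxidises actin and drives MRTF, rose from 19.5 ± 1.05 to 41.2 ± 2.77 FPKM (1.04), and TAGLN2 (0.51) and CNN2 (0.32, or 0.15 under quantile scaling) were higher. Of 42 genes tested within 5 Mb of MICAL2, 18 were higher and 2 lower, with a median of 0.13. What part this neighbourhood has in the MICAL2 difference was not tested. CALD1 fell from 19.8 ± 0.524 to 3.39 ± 0.333 FPKM (-2.24) and TAGLN from 11.1 ± 0.830 to 2.32 ± 0.218 (-1.86, or -1.07 over entries of at least 1000 bases), both actin-binding proteins of contractile cells, and ITGA5 was lower (-0.69). SRF itself was 22.9 and 21.5 FPKM in the 2 groups (adjusted p = 0.182, limma). ACTG1 and FLNA read under 0.3 FPKM in every library, and a low value in these tables need not mean low expression.

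The genes most like CCN1, by Euclidean distance of centred log2(FPKM + 1) over the 6 libraries, were ECM1 (distance 0.106), KRT79 (0.123), HLA-B (0.134), DUSP6 (0.168) and ASIC1 (0.178). ECM1, an extracellular matrix protein, fell from 28.9 ± 0.570 FPKM in EV to 8.79 ± 0.441 in OVER43, and DUSP6, a phosphatase of ERK, from 73.3 ± 1.84 to 21.7 ± 1.54. The KRT79 passed the filter only through EV, where it is high. The HLA-B value is uncertain, since 6 gene IDs share that symbol and reads can be split between them. With 6 libraries in 2 groups, this likeness reflects mainly the size of the group difference.

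The authors' deposited table lists 6 members as significant (CCN1, CCN2, AJUBA, AXL, NT5E and MYOF), where 21.3% of the genes they tested are listed so. These are the 5 members called here together with CCN2.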

How the data were processed

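Illumina TruSeq libraries were made from poly(A) RNA of 6 RKO samples, per the labels' protocols. The authors deposited 2 Cuffdiff tables, of 63563 genes and 251748 isoform entries; Cuffdiff and hg38 are named in, and its version is missing from, the submitters' processing notes. No source used here names the aligner or the strand. Per the file headers, the deposited tables hold FPKM for each library and each group, a log2 fold change of EV over OVER43, a test statistic (a score), and p-values and q-values. The deposited positions are hg19 ones: only 1 of 10 member loci overlaps its GRCh38 position. Libraries are called by their column numbers, 0 to 2, which could not be matched to the replicate labels 1 to 3.

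The filter kept genes that reached 1 FPKM in 3 or more of the 6 libraries. Their log2(FPKM + 1) values entered limma 3.58.1 under R 4.3.3, using its trend and robust settings. Group was the one factor, tests were two-sided and p-values were adjusted by Benjamini-Hochberg. Left out were 19 genes whose status is HIDATA or FAIL, and 8 of 10 members were tested. Isoform entries were tested alike. The procedure was tested on simulated data. Fragments were recovered from low FPKM values, which were whole multiples of 1 fragment within 0.1 for 100% of 273 to 307 values per library; counting intervals cover counting error only. Genes were named by gene ID from a reference list (52178 genes) or, where it had no name, by the deposited symbol (1356 genes). Transcript types and lengths came from GENCODE 29.

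Named genes are the members, GJA1, up to 3 called genes per direction in each list, YAP1, WWTR1, TEAD2, TEAD3, TEAD4 and SRF, the 5 genes most like CCN1, and the neighbours of CCN1, which were added after their values were seen. Members and lists were chosen with earlier results of these data known. The alternatives tried were another scaling (TMM, quantile, equal sums), another filter (none, or 5 FPKM), 0.1 as pseudocount, a replicate block, the omission of each library, neighbours within 2 Mb and entries of at least 1000 bases.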

Additional observations from a re-analysis of the deposited data

How the results depend on the processing

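Over 14 alternatives the log2 fold change of CCN1 lay between -1.80 and -1.64 and stayed called. AJUBA and YAP1 also stayed called in all, and NT5E and MYOF in all except the filter of at least 5 FPKM, which removed them and left 1 member lower. Members higher numbered 2 to 4, and members lower 1 to 3. With equal FPKM sums 1870 genes were higher and 3567 lower, against 3462 and 2138 as deposited. Genes changed ranged from 3959 with no filter, of 31562 tested, to 6072 over entries of at least 1000 bases. Signs turned for values that were not called. With equal FPKM sums TEAD3 was -0.0219, SRF -0.0471, ZNHIT6 -0.0477, WWTR1 -0.0945 and ODF2L -0.119. With quantile scaling LATS2 was 0.0337, WWTR1 -0.0343 and ODF2L -0.0455, and with TMM WWTR1 was -0.0102 and ODF2L -0.0368. Leaving out 1 library at a time moved LATS2 between -0.0549 and 0.0308, WWTR1 between -0.0270 and 0.108, and ODF2L between -0.0613 and 0.133. The cause was not tested. Over all named genes, 677 alternative values kept their direction and side of the threshold, 28 lost the call, 4 gained it and 16 changed sign. GJA1, AMOT, ADORA1 and KRT79, which passed the filter in 1 group only, gave no value where a library of that group was left out. Same-numbered libraries did not deviate together (correlations 0.0166, -0.0909 and 0.0285), which does not show that the samples were unpaired. With the replicate block 5316 genes were called, and CCN1 stood at -1.66 (adjusted p = 2.27e-05, limma). Depth limits CCN2 and ANKRD1 most.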
